A study of Mus musculus with 10 samples.

Results

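The AP-1 family transcription factors were examined in splenic monocytes of leukaemic and control mice. The members are the 9 genes Fos, Fosb, Fosl2, Jun, Junb, Jund, Atf3, Batf and Maff, and every probe that the array platform's annotation gives to them was taken, 13 probes of 46237 on the array. Of these, 9 probes of 8 genes passed the detection filter and were tested, and 4 probes were not. All animals were C57BL/6 mice aged 3 months. The 5 TCL1-AT samples came from recipients of murine chronic lymphocytic leukaemia cells of Eµ-TCL1 mice, a strain in which a B cell enhancer drives a TCL1 transgene, 6 weeks after the transfer. The 5 WT samples are labelled pools from mice with no intervention, so the controls received no cells and carry no transplant of any kind. The labels state neither how many mice made up a pool nor whether TCL1-AT samples are single animals, so p-values measure the spread between these samples, which may be in part technical. Cells had been sorted as lineage negative and CD11b positive with intermediate F4/80, low to intermediate CD11c and low MHC class II.

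AP-1 is a dimer of proteins that share a basic DNA-contact region and a leucine zipper. JUN proteins pair with each other and with FOS, ATF and BATF proteins, whereas FOS proteins need a partner, and the mix of subunits sets how strongly a dimer activates or represses. The family is known as the nuclear end point of MAP kinase signalling, and in monocytes and macrophages it takes part in the response to microbial products, growth factors and stress.

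Promoter letters are shown for the 2 JUN genes with the largest rises and for the 2 members with the largest falls, because AP-1 genes are known to be controlled in part by the dimers they encode. Each line gives the 120 bases before the annotated start, from RefSeq (build GRCm38.p6), written 5′ to 3′ on the gene's own strand. Capitals mark a match to the cyclic AMP response element TGACGTCA with at most 1 letter changed, or to its core TGACGT, on either strand.
Jun, chr4:95052223-95052342, minus strand: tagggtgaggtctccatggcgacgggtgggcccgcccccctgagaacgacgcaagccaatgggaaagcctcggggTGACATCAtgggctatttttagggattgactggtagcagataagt
Junb, chr8:84978749-84978868, minus strand: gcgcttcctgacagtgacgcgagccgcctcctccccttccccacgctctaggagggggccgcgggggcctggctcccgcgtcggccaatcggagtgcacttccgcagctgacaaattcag
Fos, chr12:85473770-85473889, plus strand: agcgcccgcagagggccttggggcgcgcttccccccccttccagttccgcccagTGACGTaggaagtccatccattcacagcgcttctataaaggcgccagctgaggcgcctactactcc
Atf3, chr1:191183334-191183453, minus strand: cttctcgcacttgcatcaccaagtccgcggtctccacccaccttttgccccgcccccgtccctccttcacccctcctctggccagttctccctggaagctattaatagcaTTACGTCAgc

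The Jun window held TGACATCA at 45 bases before the start, and the Atf3 window held TTACGTCA at 10 bases before it. The printed Fos stretch held the core alone, at 66 bases, with TGACGACA farther out at 129 bases, and the Junb window held neither. All 9 members had a RefSeq window of 250 bases before to 50 after a start, 11 windows in all because Maff has several. The element with at most 1 letter changed was in 5 of these 11 windows (Fos, Jun, Atf3 and 2 of Maff) and in 12.5% of all 32851 windows. The unchanged element was in 1 of them (Maff) and in 1.79% of all windows. The core was in 4 of them and in 7.51% of all windows. The AP-1 element TGACTCA, searched on both strands, was in 0 of the 11 and in 5.20% of all windows, and the serum response CArG box in 0 and in 1.63%. Sites outside these windows, such as those more than 250 bases before a start, were not searched, so these counts do not show that a gene lacks an element. A match to the element can contain a match to its core. These matches describe letters only, and binding was not measured.

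Detection on the arrays was similar between samples, at 42.9% to 45.3% of probes. The median raw signal was 91.8 ± 1.19 intensity units on TCL1-AT arrays and 85.0 ± 4.99 on WT arrays (SD, n = 5 each, exact permutation p = 0.0317, 2-sided, where the smallest possible p is 0.00794). Monocyte markers summed to 37930 to 40705 linear units on TCL1-AT arrays and 36999.9 to 39846 on WT arrays, a sum that the bright Lyz2 and Fcgr4 probes dominate. Of 8 tested monocyte genes, 1 was called higher (Lyz2, 0.29, with 2 other probes called lower at -1.71 and -0.73) and 2 lower (Adgre1 at -0.91 and Cd68 at -0.31). Over the brightest tested probe of each of 11506 named genes, 12.7% were called higher and 16.5% lower, 29.3% in all. These shares apply to every marker list here, and counts in such short lists describe only the genes in them. Csf1r, Itgam, Adgre1, Cx3cr1, Lyz2 and Cd68 were detected on all 10 arrays. Summed linear signals of marker lists for other cells differed between the groups for several types: dendritic cell markers stood at 2228 to 2802 on TCL1-AT arrays against 678 to 817 on WT arrays, with Xcr1 and Ccr9 not detected on any array. Most of that sum was Dpp4 (2.04 at its bright probe, -0.20 and not called at its other), and of 5 tested genes Zbtb46 was also called higher (1.57) and Itgae lower (-0.73). Zbtb46 was detected on 5 TCL1-AT arrays but on only 1 WT array, so it passed the filter mainly through the TCL1-AT group. Markers of B cells stood at 665 to 1109 against 518 to 587, with the highest value on TCL1-AT 3. Of 4 tested B cell genes, Cd79b (0.60), which gave most of the sum, and Fcrla (0.93) were called higher, and Ms4a1 (-0.02) and Cd22 (-0.21) were not called. Fcrla stood at 6.54 on TCL1-AT 3 but at 4.87 to 5.08 on the other TCL1-AT arrays, and its other tested probe (0.48) was not called. With the median raw signal of each array as a covariate, 0 B cell genes were called. T and NK cell markers were at 219 to 280 against 396 to 501, with Cd8a and Ncr1 not detected. Of 5 tested genes of that list, Cd3d (-1.45), Cd3e (-1.13) and Cd3g (-1.15) were called lower. Cd2 (-0.49) and the NK cell gene Klrb1c (0.04) were not called. For mast cells, basophils and eosinophils the range was 376 to 861 against 137 to 204, for erythroid cells and platelets 1723 to 4678 against 337 to 1371, and for red pulp macrophages 587 to 726 against 290 to 371. In the first of these lists Prg2 (2.68), Fcer1a (1.53) and Cpa3 (1.22) were called higher, and Siglecf was not detected. Cpa3 was detected on 5 TCL1-AT and 0 WT arrays, so it passed the filter only through the TCL1-AT group and its call adds no support. Its other tested probes gave 0.26 (not called) and 1.15 (called higher). With the raw signal covariate, Prg2 kept its call, and Fcer1a and Cpa3 did not. Fcer1a stood at 7.28 and 7.36 on TCL1-AT 1 and 5 but at 4.88 to 5.62 on the other TCL1-AT arrays. In the second list the haemoglobin genes Hbb-b1 (2.29) and Hba-a1 (2.14) were called higher. The platelet gene Itga2b (0.15) was not called, and Pf4 was not detected. The red pulp sum followed Spic, called higher at 1.66, while Vcam1 (-0.54) and Slc40a1 (-0.91), the other tested genes of that list, were called lower. Neutrophil markers overlapped, at 19891 to 37482 against 23225 to 36130. The part of these cells in the AP-1 values was not tested, and in bulk RNA fewer cells of a type and less RNA per cell cannot be told apart.

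Jun, Junb and Batf were higher in monocytes of TCL1-AT mice, and Fos, Atf3 and the brightest Fosl2 probe were lower. Jund was called higher by a small margin that most alternative settings removed, 11 of 20. Of the 9 tested member probes, 4 were called higher, 3 lower and 2 were not called, in limma's test at a Benjamini-Hochberg adjusted p under 0.05 over all 20241 tested probes. Over those 20241 probes, 12.1% were called higher and 14.8% lower, 27.0% in all. Without overlap between the groups stood 5 of the 9 probes, against 19.9% of all tested probes. The median log2 difference (TCL1-AT minus WT) of the 9 was 0.18 and the median of its absolute value 0.86, against 0.01 and 0.22 over all tested probes. The 9 probes are a small set chosen with earlier results of these data known, so their counts describe them and give no evidence about the family as such.

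**Figure D1:**
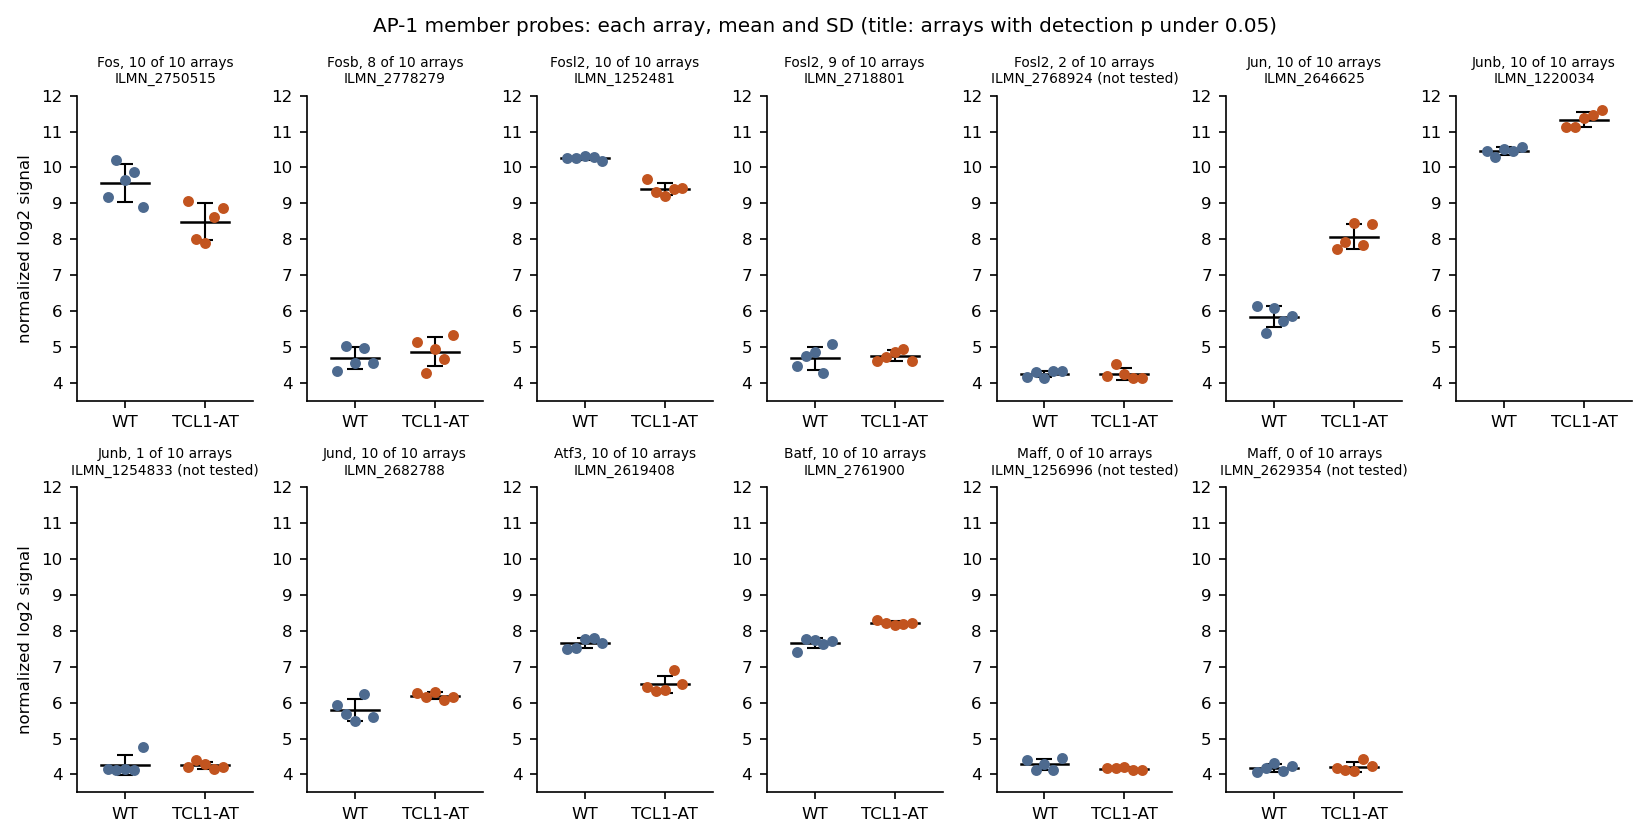
Normalized log2 signal of each of the 13 member probes (y axis) on the 5 WT and 5 TCL1-AT arrays (points), with the mean and SD of each group (line and bar). Jun lay at 5.40 to 6.14 in WT and at 7.73 to 8.46 in TCL1-AT, and the 2 Maff probes lay near the lower end of the scale on all arrays.

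Jun encodes c-JUN, the strongest activator among the JUN proteins and the main substrate of the JUN N-terminal kinases. On TCL1-AT arrays 1 to 5 its normalized log2 signal was 7.73, 7.92, 8.46, 7.84 and 8.42, and on WT arrays 1 to 5 it was 6.14, 5.40, 6.10, 5.73 and 5.86. Every TCL1-AT array lay above every WT array, with TCL1-AT 3 and 5 the highest and WT 2 the lowest. Jun rose by 2.23 on the log2 scale (SE 0.18, adjusted p = 9.38e-07), or 4.68-fold, from 5.85 ± 0.30 to 8.07 ± 0.34 (SD, n = 5 each). Before any normalization its probe read 272 to 412 intensity units in the TCL1-AT group and 112 to 136 in the controls. The WT readings were dim but lay above the WT arrays' median signals of 80.4 to 92.1, and the probe was detected on all 5 WT arrays. Without background correction the log2 difference was 1.41 (adjusted p = 2.27e-06). By size of difference Jun held rank 59 from the top among the 20241 tested probes, and by p-value rank 134.

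Junb encodes JUNB, a weaker activator that can hold back c-JUN and is needed for several macrophage activation programmes. Its signal on TCL1-AT arrays 1 to 5 was 11.13, 11.11, 11.37, 11.46 and 11.59, against 10.45, 10.28, 10.53, 10.46 and 10.57 on WT arrays 1 to 5. The groups did not overlap, with TCL1-AT 5 the highest array and WT 2 the lowest. The log2 difference was 0.88 (SE 0.12, adjusted p = 8.71e-05), 1.83-fold, and ranked 553 from the top. A further Junb probe (ILMN_1254833, assigned through a cDNA clone with no gene identifier) was detected on WT 5 alone and was not tested.

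Jund encodes JUND, a JUN protein present in resting cells and often linked to slower growth. It stood at 6.28, 6.15, 6.30, 6.07 and 6.15 on TCL1-AT arrays 1 to 5 and at 5.93, 5.69, 5.48, 6.24 and 5.59 on WT arrays 1 to 5. Here the groups overlapped, because WT 4 lay above TCL1-AT 2, 4 and 5. Jund rose by 0.40 (SE 0.14, adjusted p = 0.0422), the smallest called difference among the members. The call was lost when any 1 of 7 arrays was left out (TCL1-AT 1, 2, 3 or 5, WT 2, 3 or 5; adjusted p up to 0.0966), and with the raw signal of each array as a covariate the difference was 0.11 (adjusted p = 0.728).

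Fos encodes c-FOS, a short-lived product of the immediate response to growth factors and stress. On TCL1-AT arrays 1 to 5 it stood at 9.05, 8.01, 7.90, 8.62 and 8.88, and on WT arrays 1 to 5 at 9.17, 10.20, 9.65, 9.87 and 8.90. The groups overlapped by a single crossing, with TCL1-AT 1 above WT 5. Its SDs of 0.52 in both groups were the widest among the tested member probes. Fos fell by 1.06 on the log2 scale (SE 0.26, adjusted p = 0.00893), from 9.56 ± 0.52 to 8.49 ± 0.52 (SD, n = 5 each), and ranked 264 among the lowest differences. With raw signal as a covariate the difference was -1.19 and no longer called (adjusted p = 0.0709).

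Fosl2 encodes FRA-2, a FOS protein without the strong activating domain of c-FOS. Its brightest probe (ILMN_1252481) read 9.67, 9.31, 9.20, 9.39 and 9.42 on TCL1-AT arrays 1 to 5 and 10.25, 10.26, 10.31, 10.30 and 10.19 on WT arrays 1 to 5. The WT arrays were nearly equal, with an SD of 0.05, and all lay above the TCL1-AT arrays. The difference was -0.86 (SE 0.10, adjusted p = 3.61e-05), a fall of 1.82-fold. Its other probes did not show it: ILMN_2718801, detected on 9 arrays at a mean of 4.75 in TCL1-AT and 4.69 in WT, gave 0.07 (SE 0.15, adjusted p = 0.77), and ILMN_2768924 was detected on only 2 arrays and was not tested. Both of these probes lay close to background, where a difference would be hard to see.

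Fosb, another strongly activating FOS gene, was dim, with detection on 4 of 5 arrays in each group. Its signal was 4.29 to 5.33 on TCL1-AT arrays (median 4.96) and 4.33 to 5.04 on WT arrays (median 4.55), which overlapped almost fully. The log2 difference of 0.18 (SE 0.19, adjusted p = 0.52) was not called.

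Atf3 encodes a stress-induced factor that pairs with JUN proteins and, in mouse macrophages, represses genes induced through Toll-like receptors. Its signal on TCL1-AT arrays 1 to 5 was 6.43, 6.34, 6.35, 6.92 and 6.52, and on WT arrays 1 to 5 it was 7.50, 7.52, 7.77, 7.81 and 7.67. No TCL1-AT array reached the WT range, and TCL1-AT 4 was the nearest to it. Atf3 fell by 1.15 on the log2 scale (SE 0.13, adjusted p = 1.72e-05), 2.21-fold, the lowest difference among the members and rank 196 among the lowest of all tested probes. Without background correction the difference was -0.75 (adjusted p = 9.32e-06).

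Batf encodes a small factor with no activating domain of its own that joins JUN proteins and binds DNA with IRF4 or IRF8. It stood at 8.31, 8.22, 8.15, 8.19 and 8.22 on TCL1-AT arrays 1 to 5 and at 7.41, 7.77, 7.74, 7.64 and 7.71 on WT arrays 1 to 5. The TCL1-AT arrays were close together, with an SD of 0.06, and all lay above the WT arrays, of which WT 1 was the lowest. The log2 difference was 0.56 (SE 0.10, adjusted p = 0.000796), or 1.48-fold. Batf is also expressed by dendritic cells and lymphocytes, whose marker levels differed between the groups as given above.

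Maff encodes a small MAF protein that lacks an activating domain and binds related DNA elements. Its probes ILMN_1256996 and ILMN_2629354 were detected on 0 of the 10 arrays, with signals of 4.11 to 4.46 and 4.07 to 4.44. It was not tested, and its level could not be told from background on these arrays.

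**Figure D2:**
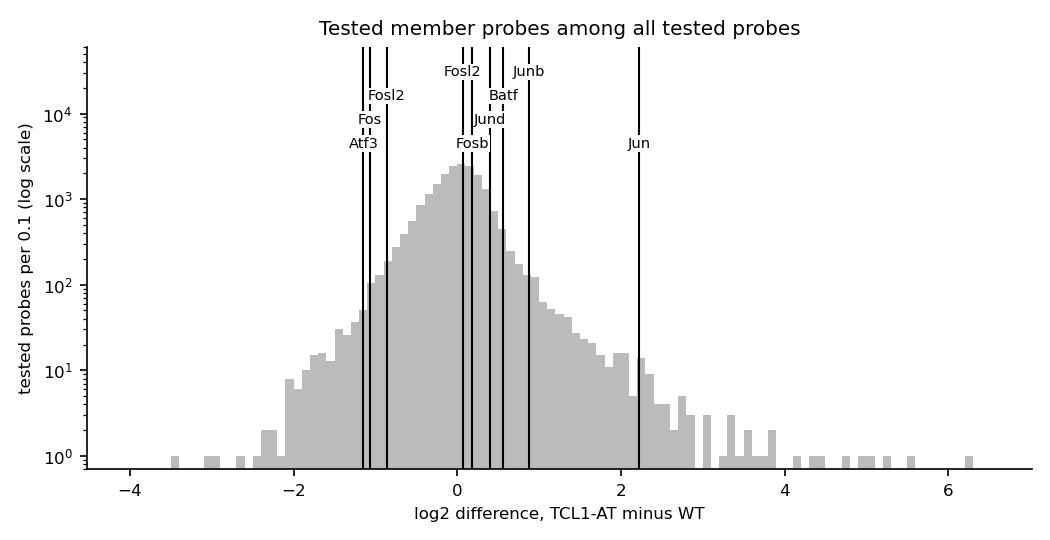
Distribution of log2 differences (x axis, TCL1-AT minus WT) over all 20241 tested probes, as a count per bin on a log scale (y axis), with a vertical line at each of the 9 tested member probes. Jun at 2.23 lies in the upper tail, Atf3 at -1.15 and Fos at -1.06 in the lower tail, and Fosb at 0.18 near the centre.

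Other genes of the AP-1 family and its close relatives moved in both directions. Of 6 tested genes, 1 rose and 2 fell, against 12.7% called higher and 16.5% called lower (29.3% in all) over the brightest tested probe of each of 11506 named genes, and the median difference was -0.29 against 0.01. Batf2, a BATF relative induced by interferon, rose by 1.73 (SE 0.15, adjusted p = 2.37e-06), with TCL1-AT arrays at 7.51 to 8.13 (median 7.81) and WT arrays at 5.71 to 6.38 (median 6.06). Batf3, which mice need for one dendritic cell lineage, fell by 1.33 (SE 0.14, adjusted p = 1.67e-05), at 7.11 to 7.89 against 8.53 to 9.07, and its other tested probe fell too, by 1.22. Thus the 3 BATF genes did not share a direction, with Batf and Batf2 higher and Batf3 lower without overlap of the groups. Jdp2, a repressor that pairs with JUN proteins, fell by 0.85 (SE 0.18, adjusted p = 0.00395). Atf2, a partner of c-JUN activated by stress kinases, differed by -0.47 and was not called (adjusted p = 0.0749). Maf, Mafa and Mafk did not pass the detection filter, and Fosl1 was not analysed here.

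**Figure D3:**
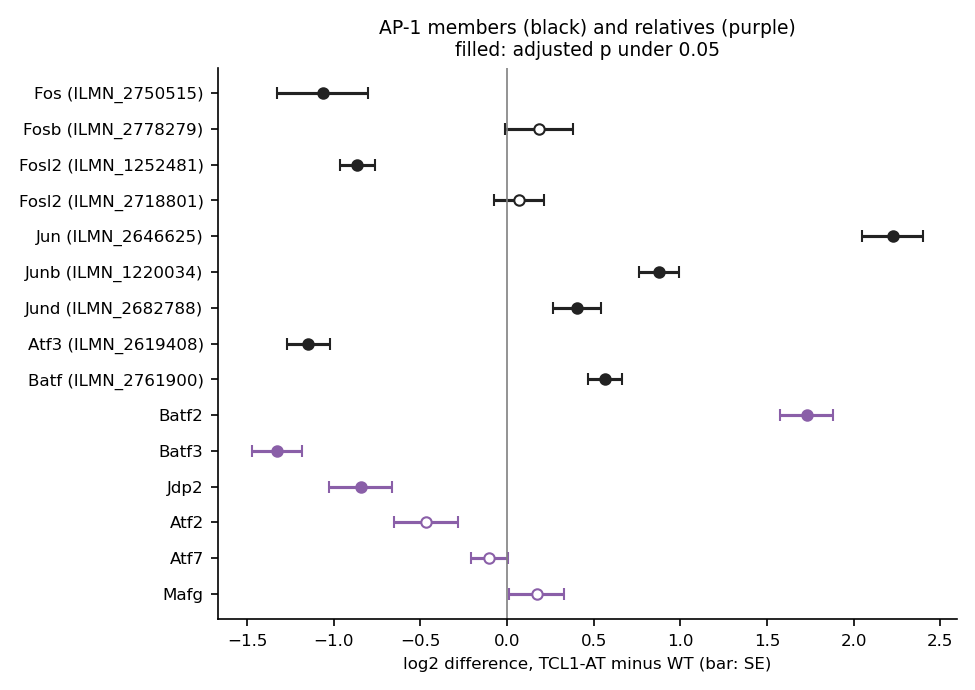
Log2 difference, TCL1-AT minus WT (x axis, with SE as bars), of the 9 tested member probes (black) and of the brightest probe of 6 relatives (purple). Filled points were called, and all called JUN genes, Batf and Batf2 lie to the right of 0 while Fos, the brightest Fosl2 probe, Atf3, Batf3 and Jdp2 lie to the left.

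CREB, ATF and C/EBP factors, relatives with the same kind of zipper, were also mixed. Of 11 tested CREB, ATF and C/EBP genes, 3 rose and 2 fell, with a median of 0.18, where 12.7% of all named genes were called higher and 16.5% lower. Cebpb, a driver of the inflammatory programme of macrophages, rose by 0.55 (adjusted p = 0.00073) and Creb1, a cyclic AMP-responsive factor, by 0.77 (adjusted p = 0.00132), although another probe of Creb1 gave -0.12. Cebpa, a factor of myeloid development, fell by 1.03 (adjusted p = 0.00124), and Cebpg, a C/EBP protein without an activating domain, fell by 0.66 (adjusted p = 0.000137), with another probe at 0.01.

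Among the kinases upstream of AP-1, the 3 tested p38 genes were called higher. Of 11 tested MAP kinase and MAP2 kinase genes, 3 rose and 2 fell, with a median of 0.07, beside the 29.3% of all named genes that were called. Mapk11, which encodes p38 beta, was 4.47-fold higher, at 7.19 to 7.57 (median 7.25) on TCL1-AT arrays and 4.77 to 5.58 (median 5.15) on WT arrays (log2 difference 2.16, SE 0.14, adjusted p = 1.93e-07). Mapk13, p38 delta, rose by 0.88 (adjusted p = 0.000185) and Mapk14, p38 alpha, by 0.33 (adjusted p = 0.0464), the latter named after its values were seen. The Mapk14 groups overlapped, and its call held in only 2 of 10 fits with 1 array left out and not with raw signal as a covariate (0.26, adjusted p = 0.353), whereas Mapk11 and Mapk13 kept theirs in all of these. Mapk8, which encodes the JUN kinase JNK1, fell by 0.38 (adjusted p = 0.0287), but its 2 other tested probes were not called. Map2k6, an activator of p38, fell by 0.62 (adjusted p = 0.0444) at a dim probe, with a TCL1-AT mean of 4.66 and detection on 4 of 5 TCL1-AT arrays. Other tested Map2k6 probes gave -0.66 (called lower) and -0.14 (not called). At the brightest probes, neither the Mapk8 nor the Map2k6 fall was called with raw signal as a covariate. With 1 array left out, 0 to 2 genes of the list were called lower. Of 10 tested MAP3 kinases and kinases that act beside them, 2 rose and 1 fell, a share close to the 29.3% called over all named genes, so the count says nothing particular about the list. Map3k8, which encodes the ERK pathway kinase TPL2, rose by 0.55 (adjusted p = 0.0043) and Mapkapk2, a kinase activated by p38, by 0.45 (adjusted p = 0.0105). Rps6ka5, the nuclear kinase MSK1 that acts on histones at immediate early genes, fell by 0.74 (adjusted p = 0.000772), and with raw signal as a covariate 0 genes of this list were called higher and 1 lower.

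The phosphatases that switch MAP kinases off divided by gene. Of 8 tested, 2 rose and 3 fell, with a median of -0.18, beside the 29.3% called over all named genes. Dusp16, a phosphatase of JNK and p38, rose by 1.17 (SE 0.13, adjusted p = 2.39e-05), and its 4 other tested probes were also called higher. Dusp2, induced in activated leukocytes, rose by 0.78 (adjusted p = 0.00026). Dusp6, an ERK phosphatase of the cytoplasm, was 2.41-fold lower (log2 difference -1.27, SE 0.17, adjusted p = 0.000111), at 10.75 to 11.36 on TCL1-AT arrays and 11.94 to 12.76 on WT arrays, and 1 of its 2 other probes was not called. Dusp7, a related ERK phosphatase, fell by 1.04 (adjusted p = 0.000433). Of the serum response factor route, which drives Fos transcription, 3 genes were tested and 0 were called in limma's test: Srf gave -0.16, Elk3 -0.26 and Mrtfa 0.06 (unadjusted p = 0.137, 0.0328 and 0.719, so 1 of 3 was under 0.05 before adjustment).

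Partner factors of BATF and JUN did not move together. Of 9 genes tested, 4 were called higher and 3 lower, with a median of -0.09, beside the same 29.3%. Irf4, which binds DNA with BATF and JUN, was 4.20-fold lower (log2 difference -2.07, adjusted p = 2.33e-08), at 6.10 to 6.58 on TCL1-AT arrays and 8.27 to 8.51 on WT arrays. Irf8, the other such partner and a factor of monocyte development, fell by 0.85 (adjusted p = 0.000667), a call that raw signal as a covariate ended (-0.59, adjusted p = 0.066), while that of Irf4 held (-1.99). Ets1 and Ets2, which bind beside AP-1 at many enhancers, rose by 1.61 (adjusted p = 4.22e-07) and 0.97 (adjusted p = 5.37e-05). With the covariate, Ets1, Ets2 and Irf4 kept their calls in this list, and Nfatc3, Spi1, Irf8 and Runx1 did not. Of 6 tested genes listed for the turnover or repression of JUN, 1 rose and 3 fell (29.3% called over all named genes). The falls included Itch, a ubiquitin ligase of JUN proteins, at -1.02 (adjusted p = 0.000301), with its 2 other probes not called. The other falls were Tbl1xr1 (-0.43) and Tcf4 (-0.39), and Tcf4 is not an established factor of JUN turnover or repression. The 1 rise was Cop1, counted by its brightest probe (0.50), while its 2 other tested probes were called lower (-0.58 and -0.59). With the covariate, 0 genes of this list were called higher and 1 lower.

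**Figure D4:**
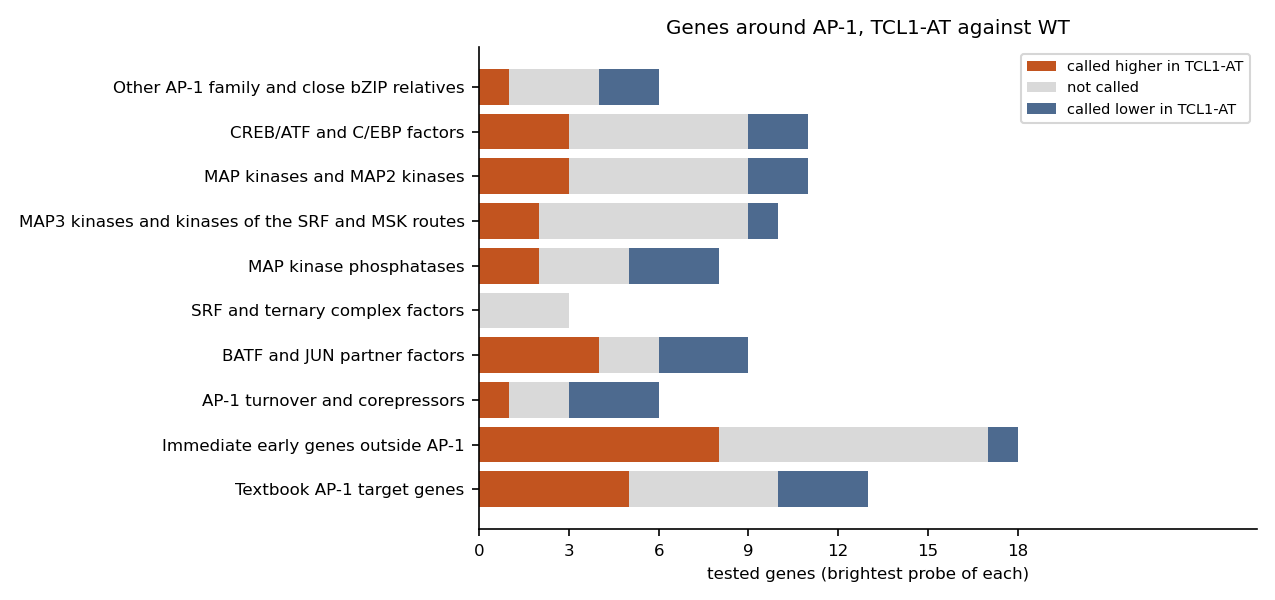
Number of tested genes (x axis) called higher (orange), not called (grey) and called lower (blue) in TCL1-AT for 10 lists of genes around AP-1, with 1 probe for each gene. Immediate early genes outside AP-1 had 8 higher and 1 lower of 18, and the serum response factor list had none called.

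Of the immediate early genes outside AP-1, 9 of 18 were not called, and most calls were for higher levels. Of 18 tested, 8 rose and 1 fell, with a median of 0.40, where 12.7% of all named genes were called higher and 16.5% lower. With 1 array left out 6 to 8 were called higher, and with raw signal as a covariate 6 rose and 0 fell. Ppp1r15a, a stress-induced phosphatase subunit, was 3.74-fold higher at 9.15 to 10.04 against 7.43 to 7.80, with TCL1-AT 5 and 3 the highest arrays, as for Jun. Socs3, an inhibitor of cytokine signalling, rose by 1.53 (adjusted p = 3.05e-07) and Csrnp1, a nuclear factor, by 1.42 (adjusted p = 2.13e-06). Ier3, a survival factor, rose by 1.35 (adjusted p = 3.89e-06). Egr1 was also called higher, whereas Fos fell. The 1 fall in this list was Klf4 (-0.57), whose other tested probes were not called. The genes without a call were Egr2, Egr3, Ier2, Ier5, Btg2, Nr4a1, Nr4a2, Klf2 and Klf6. The phosphatase gene Dusp1, which belongs to the phosphatase list above and which growth factors induce as they do Fos, was not called, at -0.42 (adjusted p = 0.115). On TCL1-AT 2 and 3, the arrays with the lowest Fos, Dusp1 was also lowest, at 9.25 and 9.47. Dusp1 stood at 9.91 to 10.45 on WT arrays. Ier2 went the other way, at 7.10 and 7.08 on TCL1-AT 2 and 3. It was lowest on TCL1-AT 1 (5.83), the TCL1-AT array with the highest Fos. Egr1 stood at 8.32 on TCL1-AT 2 and at 9.03 on TCL1-AT 3. Dusp1, Ier2 and Egr1 were chosen here after their values were seen, and whether they vary with Fos was not tested.

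Genes that textbooks list as AP-1 targets showed no common direction. Of 13 tested, 5 rose and 3 fell, with a median of 0.04, beside the 29.3% called over all named genes. Ccnd1, the cell cycle regulator cyclin D1, was 5.11-fold higher, at 7.31 to 8.16 (median 7.77) on TCL1-AT arrays and 5.17 to 5.55 (median 5.51) on WT arrays (adjusted p = 2.91e-07), and its other 2 tested probes were called higher too. Il1b, an inflammatory cytokine gene, rose by 2.12 (adjusted p = 8.66e-07), Tnf by 1.39 (adjusted p = 0.000132) and the metallothionein gene Mt1 by 0.63 (adjusted p = 0.000182). The 3 falls were in Plaur, the urokinase receptor gene (-0.68, adjusted p = 0.00187), Cd44 (-0.48, adjusted p = 0.00145) and Tgfb1 (-0.34, adjusted p = 0.0399), of which Tgfb1 kept its call in only 2 of 10 fits with 1 array left out. Plaur, Cd44 and Tgfb1, and the proteinase genes Mmp9, Mmp13 and Plau, were named after their values were seen. Mmp9, Mmp13 and Plau were dim and gave -0.16, 0.04 and -0.03 without a call (adjusted p = 0.373, 0.86 and 0.909). Mmp3, Mmp12, Ccl2 and Il6 did not pass the detection filter.

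The genes most like each strongly changed member were found by the root mean square distance between profiles over the 10 arrays, each centred on its WT mean, among 11498 named genes outside the members. Nearest to Jun were H2-Eb2, an MHC class II gene, at a distance of 0.17 on the log2 scale, Wnt6, a WNT ligand gene, at 0.21, and Mapk11 at 0.22. Fos was nearest to C1galt1c1 (0.29), a chaperone gene of O-glycosylation, Ptger2 (0.32), a prostaglandin E2 receptor gene, and Mettl9 (0.32). The profile of Atf3 was closest to Cln8 (0.12), Paqr7 (0.12) and the inhibitory antibody receptor gene Fcgr2b (0.13). The larger distances for Fos go with its wider spread between arrays of a group. With this centring a short distance requires a similar difference between the groups, as for H2-Eb2 (2.31), Wnt6 (2.20) and Mapk11 (2.16) beside Jun. Shared control of these genes was not tested.

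**Figure D5:**
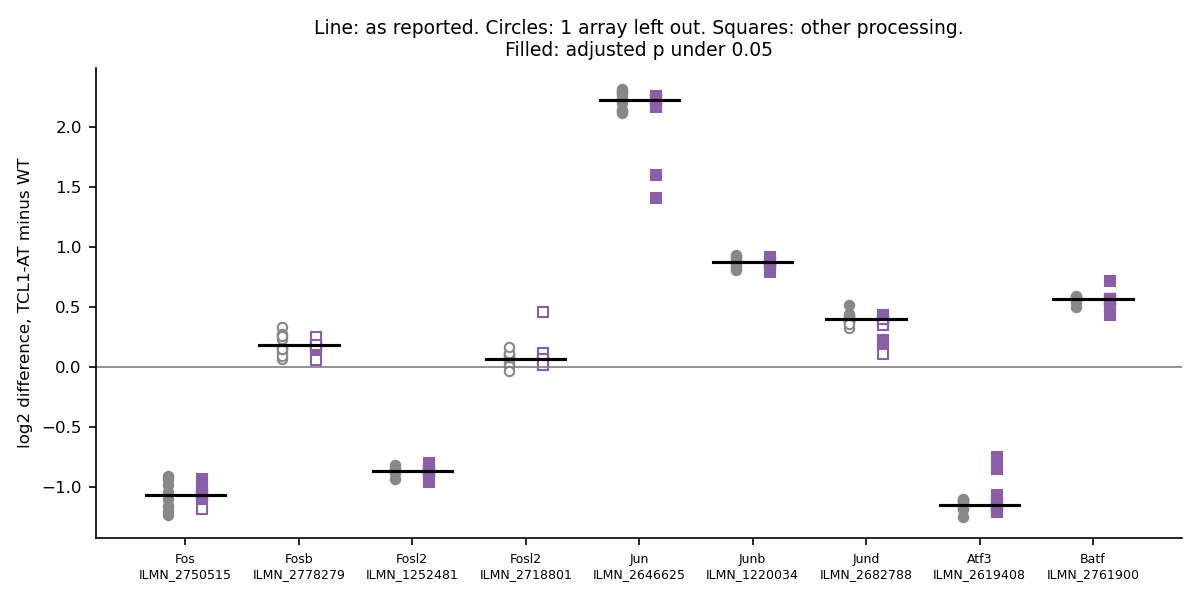
Log2 difference, TCL1-AT minus WT (y axis), of the 9 tested member probes as reported (line), with each array left out (circles) and under other processing (squares). Filled symbols were called. Jun stayed between 1.41 and 2.31, and Jund reached down to 0.11.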

How the data were processed

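Biotin-labelled cRNA made from 150 ng of total RNA was hybridised to Illumina mouse arrays, per the labels' protocols. The deposited non-normalized table holds a signal intensity with its detection p-value on 10 arrays, per the file headers, for 46237 probes. The log2 values of the authors' series matrix were tested. How they were made is not given in the sources used here. From the values, every array's median was 4.30, and they differed by at most 0.00043 from limma's neqc (normexp background correction, quantile normalization, offset 16), with direction and centring as there. The offset compresses dim signals, so their differences are understated.

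The 20241 probes detected (p under 0.05) on 5 or more arrays were fitted with lmFit and eBayes (limma 3.58.1, R 4.3.3), 2-sided, with Benjamini-Hochberg adjustment and a threshold of 0.05. In gene lists the brightest tested probe stood for a gene. Symbols came from the platform annotation (35784 probes with 1 symbol, 10453 unlisted), updated through Entrez identifiers for 28620 and accessions for 2637, with 4527 kept. Named genes were all members, up to 4 genes of each list with the lowest p, and the 3 nearest profiles of called members with a difference of at least 1. Members and lists were chosen with earlier results of these data known. The fit was tested on simulated data. Alternatives were other background corrections, scalings and filters, 1 probe for each gene, array weights, the replicate number as a block, raw signal as a covariate, and each array left out. The number of arrays limits the precision.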

Additional observations from a re-analysis of the deposited data

How the results depend on the processing

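The number of member probes called stayed at 5 to 7 under 20 alternatives, against 7 as reported, and Jun, Junb, the brightest Fosl2 probe, Atf3 and Batf kept their direction and their call under all of them. Batf did so narrowly, with a highest adjusted p of 0.0499 in limma's test. Over all probes, 5463 were called, 3637 with median scaling, 2442 with raw signal as a covariate, and 4372 to 5755 with 1 array left out. Raw signal as a covariate ended the call of Fos (-1.19, adjusted p = 0.0709) and of Jund (0.11). The covariate ran largely with the groups, at 90.3 to 93.4 on TCL1-AT arrays and 80.4 to 92.1 on WT arrays. It widened the SE of Fos from 0.26 to 0.40, so a call lost in this setting can reflect lower precision. Jund also lost its call with median scaling (0.35), with no filter and with the replicate block (0.40 each). With 1 array left out it lay between 0.33 and 0.52. The second Fosl2 probe reversed without WT 4, at -0.033 (range with 1 array left out -0.033 to 0.17), gave 0.46 with raw signal as a covariate (adjusted p = 0.0823), and was not called in any setting. Without background correction Jun gave 1.41, Atf3 -0.75 and Jund 0.19, since uncorrected background compresses dim probes by construction, and with a normexp offset of 50 Jund gave 0.23. The difference in median raw signal was 6.80 intensity units, and 5.66 to 8.57 with 1 array left out. It lost its p under 0.05 without TCL1-AT 1 (6.65) or TCL1-AT 5 (6.40), where the exact permutation p was 0.0635. Equal replicate numbers did not pair the samples: correlations of deviations from the group means ran from -0.18 to 0.18 over 5 pairs, 1 of 5 was over 0.1, and the replicate block called 4602 probes and 6 member probes. Maff, Fosb and the dimmer Fosl2 and Junb probes lay near background, where a change is hard to see.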

Other observations

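Probes of 1 gene disagreed for some genes of the lists around AP-1. Cop1, which encodes a ubiquitin ligase that targets JUN proteins, had a brightest probe at 0.50 (adjusted p = 0.0148) and 2 other probes at -0.58 and -0.59 (adjusted p = 0.00786 and 0.00398), all 3 called in limma's test. Klf6, an immediate early gene, gave -0.05 at its bright probe and -0.84 (adjusted p = 0.00653) at its dimmer one. For Cd44, an adhesion receptor gene listed as an AP-1 target, 3 of 6 tested probes were called lower, at -0.48, -0.49 and -0.98, and 3 were not called. These genes were picked after their values were seen.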
